A study of Mus musculus with 30 samples.

Results

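The mitochondrial carrier family, encoded by the Slc25a genes, was followed in the hearts of mice with the S55L mutation of CHCHD10, a protein of the mitochondrial intermembrane space. Members were chosen by name only. Every row of a count table counted as a member if its Ensembl ID carried, in the GENCODE M21 annotation, a protein-coding symbol that begins with Slc25a. This gave 47 genes of 78258 in the table of the postpartum study and 47 genes of 56691 in the table of the diet study. Of these, 38 passed the filter on low counts among the 18 libraries of the postpartum study and 34 among the 8 of the diet study. The other 9 members of the postpartum study were Slc25a2, Slc25a18, Slc25a21, Slc25a31, Slc25a41, Slc25a43, Slc25a48, Slc25a53 and Slc25a54. Among them Slc25a53 was the highest, with group means between 1.26 and 2.21 CPM (the count scaled to a common library size), and Slc25a48 and Slc25a54 had no reads. In the diet study Slc25a16, Slc25a28, Slc25a29 and Slc25a35 also fell under the filter.

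The postpartum study held 4 groups. S55L PP and WT PP mice, where WT is wild type, had been bred at an age of 65 days and were killed at 0 days postpartum, and S55L naive and WT naive mice were left to age to 100 days. The diet study held S55L mice on postpartum day 0 only, which had been given an EH301 diet or a control diet while breeding. EH301 holds pterostilbene and nicotinamide riboside, from which cells make NAD. The labels name the genotypes as S55L and wild type without saying whether 1 or both alleles carried the mutation, and they do not give the age of the postpartum mice at death. Each group was deposited as 5 columns, but S55L PP 1 and 2 were identical, as were WT PP 1 and 2, and each of these pairs was used once. A column deposited both as EH301 diet 6 and as control diet 5 was left out, because its diet is unknown. This left 4 libraries of S55L PP, 5 of S55L naive, 4 of WT PP, 5 of WT naive, 4 of the EH301 diet and 4 of the control diet.

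Libraries were 3' mRNA libraries, in which a transcript gives reads near its end only, so that CPM do not scale with transcript length. Levels of different genes still depend on how many of their reads aligned to several places, since such reads were not counted. The counts on genes came to 2755500 to 4157372 a library in S55L PP, 3369420 to 5131316 in S55L naive, 1897249 to 2949993 in WT PP and 1418715 to 2307283 in WT naive. On EH301 they came to 1141997 to 3048461, with EH301 diet 8 lowest, and on the control diet to 466651 to 2982870, with control diet 1 lowest. WT libraries lay in the first column of the library plate, except WT PP 1, and S55L libraries in the next columns, so that genotype and plate column can hardly be told apart. WT naive 1, WT PP 1 and S55L PP 1, which shared a plate row, had the highest share of reads on no gene in their groups, 9.62% to 10.1%. Marker genes of some heart cell types differed between the genotypes. Of all tested genes 21.9% were higher and 21.6% lower in S55L naive than in WT naive. In S55L PP against WT PP these shares were 16.3% and 15.2%. Of 9 cardiomyocyte markers 8 were lower in both S55L groups, and their summed level was 44516 to 58231 CPM in S55L naive against 79459 to 99658 CPM in WT naive, and 36319 to 47660 CPM in S55L PP against 79890 to 96676 CPM in WT PP. Macrophage markers were higher for 8 of 8 genes in S55L naive (sum 636 to 923 CPM, against 147 to 189 CPM in WT naive) and for 7 of 8 in S55L PP (sum 659 to 931 CPM, against 200.2 to 317 CPM in WT PP). Fibroblast markers were higher for 4 of 7 genes in S55L naive and 5 of 7 in S55L PP. Endothelial markers were lower for 2 of 6 genes (33.3%) in S55L naive and 1 of 6 (16.7%) in S55L PP, the latter near the share of all genes. Of 6 smooth muscle and pericyte markers 4 were lower and 1 higher in S55L naive and 2 lower and 1 higher in S55L PP. Of 4 brown adipocyte markers, Ucp1 was at 0 in all 4 groups and 1 was tested, Cidea, which was not called. Their summed level was 35.98 to 60.6 CPM in S55L naive against 24.5 to 52.5 CPM in WT naive, and 40.5 to 66.2 CPM in S55L PP against 29.6 to 48.1 CPM in WT PP. Of 6 skeletal muscle markers 2 were tested, both of which the heart also expresses, and Ckm was lower in both comparisons and Acta1 higher in S55L naive. In whole hearts fewer cells of a type cannot be told apart from less RNA per cell, and the part of cell makeup in the carrier results was not tested.

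Carriers of this family sit in the inner mitochondrial membrane and exchange nucleotides, phosphate, di- and tricarboxylates, amino acids, acylcarnitines and cofactors between the cytosol and the matrix. The ADP/ATP carriers export the ATP made by oxidative phosphorylation in exchange for ADP. Slc25a4 encodes ANT1, the form of heart and skeletal muscle, and Slc25a5 encodes ANT2, the form found in most other and in dividing cells. Heart muscle relies on the carnitine/acylcarnitine carrier for fatty acid oxidation and on the malate-aspartate shuttle to bring cytosolic reducing equivalents into the matrix.

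The family took a smaller share of the reads on genes in mutant hearts, at 0.953% to 0.984% in S55L PP against 1.42% to 1.62% in WT PP, and at 0.960% to 1.23% in S55L naive against 1.27% to 1.53% in WT naive. Most of these reads came from Slc25a4. It held 50.3% to 62.8% of the family's reads in S55L PP, 58.2% to 63.8% in S55L naive, 66.4% to 75.5% in WT PP and 70.5% to 75.3% in WT naive. Slc25a3, the phosphate carrier that supplies ATP synthase, came next with 16.9% to 28.6% in S55L PP, 17.1% to 22.2% in S55L naive, 11.9% to 21.9% in WT PP and 11.1% to 15.4% in WT naive. Between 38 and 43 of the 47 members had at least 1 read in a library of the postpartum study. Mitochondrially encoded genes also took a smaller share of the reads on genes in mutant hearts. It was 9.52% to 15.5% in S55L PP against 16.8% to 24.6% in WT PP. In S55L naive it was 13.9% to 15.2%, against 19.1% to 23.7% in WT naive. The link between this share and that of the carriers was not tested.

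The genotype comparisons ask which carrier transcripts differ between S55L and WT, in hearts of mice never bred and in hearts on the day of birth. In S55L naive against WT naive, 21 of the 38 tested members were called by edgeR's quasi-likelihood test at a Benjamini-Hochberg adjusted p below 0.05, which is 55.3% of them, against 43.5% of all tested genes. Of these, 8 were higher and 13 lower, against 21.9% of all genes higher and 21.6% lower. The libraries of the 2 genotypes did not overlap for 20 of the 38 tested members (52.6%) and for 32.2% of all tested genes. In S55L PP against WT PP, 18 members were called, 6 higher and 12 lower, which is 47.4% of those tested against 31.5% of all genes (16.3% higher and 15.2% lower). There the genotypes did not overlap for 12 of the 38 (31.6%), against 25.4% of all genes. The median log2 fold change of the tested members was -0.21 in both comparisons, and that of all tested genes was -0.0039 in the naive and -0.00068 in the PP comparison. Both comparisons called 17 members, 81.0% of the naive calls and 94.4% of the PP calls, and each of the 17 had the same direction in both. Over all tested genes 3215 were called in both, 61.9% of the naive and 85.3% of the PP calls, and all 3215 had the same direction. Scaling by total reads in place of trimmed means moved the median log2 fold change of all genes up to 0.24 in the naive and 0.27 in the PP comparison. It gave 11 members higher and 11 lower in S55L naive, beside 33.6% of all genes higher and 12.4% lower. The same scaling gave 9 higher and 8 lower in S55L PP, beside 28.9% and 8.18% of all genes. With plate column as a term in the model, 13 members were called in the naive comparison, 4 higher and 9 lower, beside 11.6% of all genes higher and 12.4% lower. In the PP comparison 11 were called, 3 higher and 8 lower, beside 8.96% and 8.69% of all genes. Among the calls lost with this term were those of Slc25a11, Slc25a14, Slc25a23, Slc25a30, Slc25a32, Slc25a44 and Slc25a47 in naive hearts and of Slc25a12, Slc25a14, Slc25a28, Slc25a30, Slc25a44, Slc25a45 and Slc25a47 in PP hearts.

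**Figure D1:**
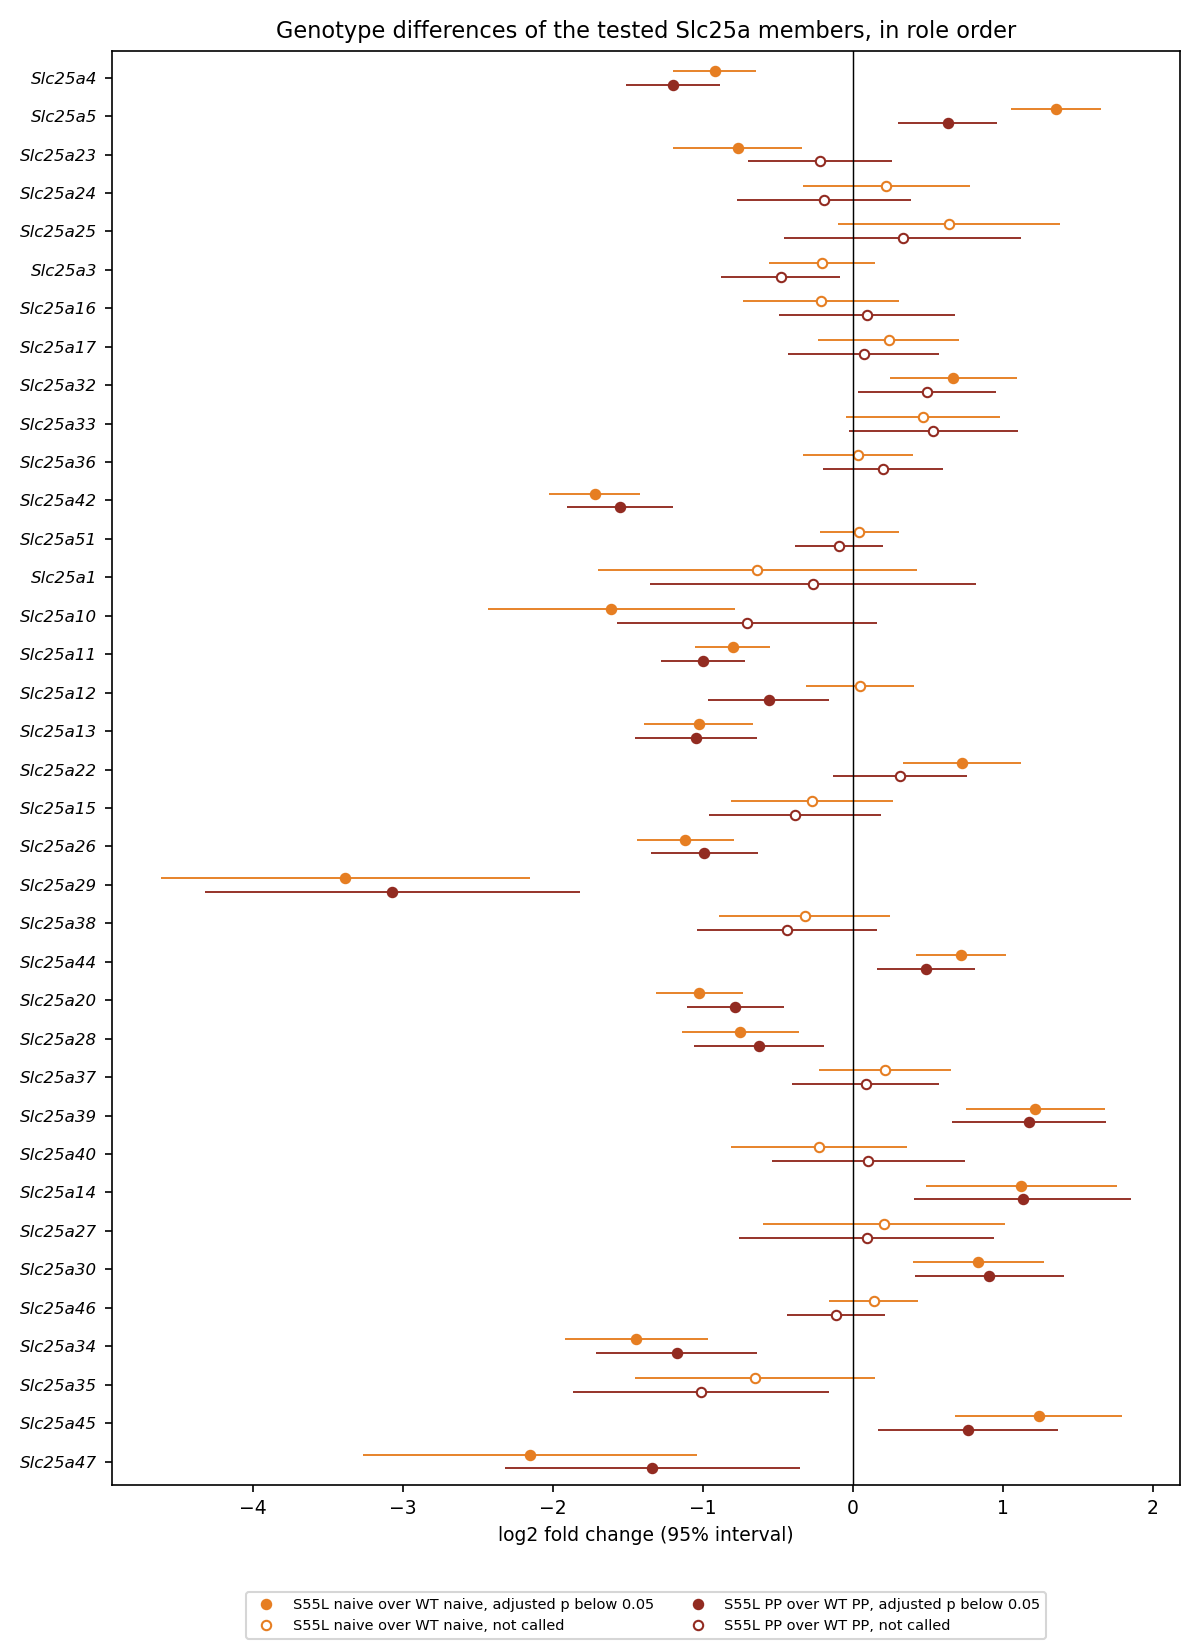
Log2 fold change (x axis) of the tested Slc25a members reported here (y axis, in order of role) for S55L naive over WT naive and S55L PP over WT PP, with 95% intervals; filled points have an adjusted p below 0.05. Slc25a4 and Slc25a42 lie left of 0 and Slc25a5 and Slc25a39 right of 0 in both comparisons, and Slc25a29 is farthest left, at -3.38 and -3.07. Slc25a29 passed the count filter only through WT libraries, in which it is higher.

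The 2 expressed ADP/ATP carriers moved in opposite directions. Slc25a4 (ENSMUSG00000031633) was at 5627, 5184, 5643, 7509 and 5561 CPM in the 5 S55L naive libraries, against 11251, 11443, 10119, 11119 and 11938 CPM in the 5 WT naive libraries. It was at 4887, 5481, 5825 and 4241 CPM in S55L PP, against 11289, 12490, 11792 and 11371 CPM in WT PP. Every S55L library was below every WT library. The log2 fold change was -0.92 (SE 0.14, adjusted p = 4.0e-06) in naive and -1.20 (SE 0.15, adjusted p = 6.5e-07) in PP hearts, beside a median of -1.29 and -1.18 over the 9 cardiomyocyte markers. Slc25a5 (ENSMUSG00000016319) was at 385, 353, 279, 323 and 312 CPM in S55L naive, against 153, 122, 105, 143 and 123 CPM in WT naive. In S55L PP it was at 269, 319.05, 292 and 367 CPM, against 162, 190, 196 and 256 CPM in WT PP. The genotypes did not overlap in either state, although the highest WT PP library came close to the lowest S55L PP library. The log2 fold change was 1.35 (SE 0.15, adjusted p = 3.1e-08) in naive and 0.63 (SE 0.16, adjusted p = 0.0033) in PP hearts. Both genes kept their calls in both comparisons under every alternative run. Slc25a5 has processed pseudogenes, and reads aligned to several places were not counted. Such reads made up 17.5% to 21.2% of all reads in S55L libraries and 24.7% to 27.3% in WT libraries, and their part in the Slc25a5 difference was not tested. The testis form Slc25a31 had a group mean of at most 0.42 CPM and was not tested.

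**Figure D2:**
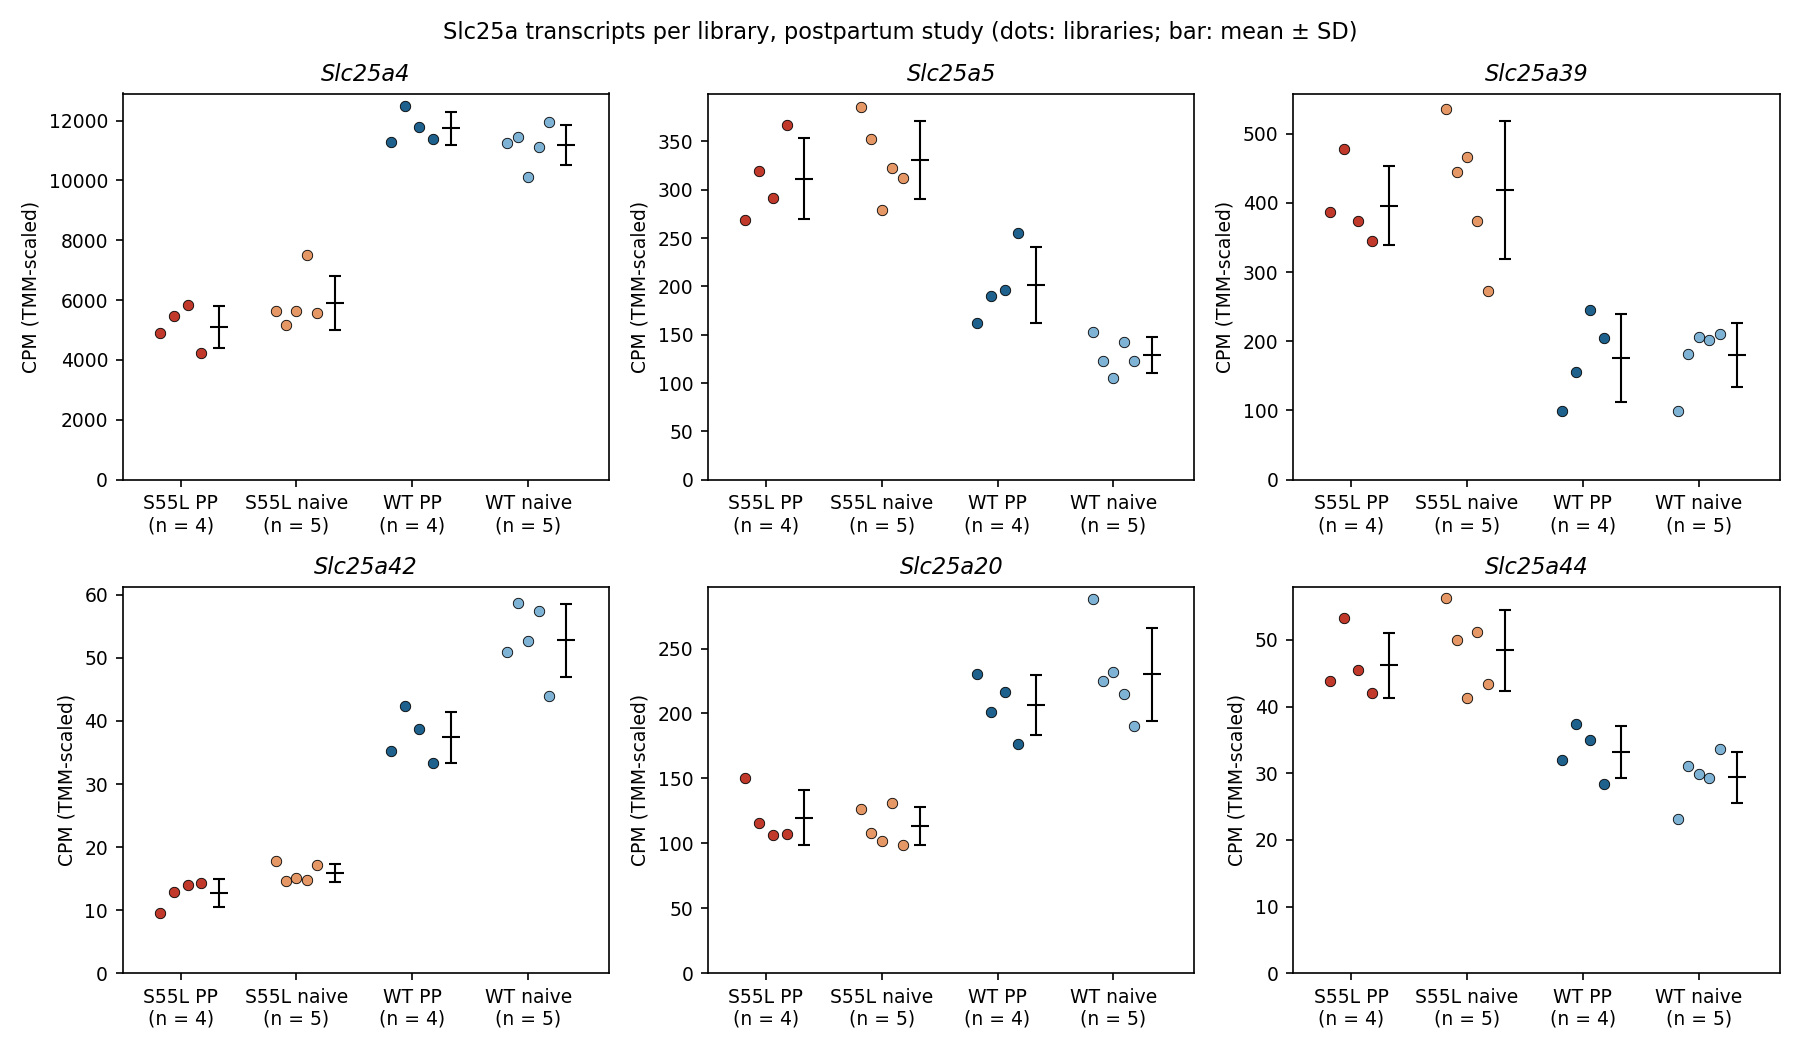
Level in CPM (y axis, scaled by trimmed means) of 6 called carriers in each library of the 4 postpartum-study groups (x axis); points are libraries and bars the mean ± SD. Slc25a4, Slc25a42 and Slc25a20 are lower, and Slc25a5, Slc25a39 and Slc25a44 higher, in every S55L library than in every WT library of the same state.

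The ratio of Slc25a4 to Slc25a5 reads within a library needs no scaling between libraries. Reads aligned to several places are not in it, so that it is a ratio of counted reads and may differ from that of the transcripts. The ratio was 14.6, 14.7, 20.2, 23.3 and 17.8 in S55L naive, against 73.5, 93.4, 96.1, 77.8 and 97.3 in WT naive. In S55L PP it was 18.2, 17.2, 20.0 and 11.6, against 69.6, 65.8, 60.1 and 44.5 in WT PP. No S55L library reached the lowest WT library in either state. On the log2 scale the ratio was lower by a difference of -2.29 in S55L naive (4.89-fold, exact permutation test, two-sided, p = 0.0079, adjusted over 5 comparisons 0.040) and by a difference of -1.85 in S55L PP (3.61-fold, exact permutation test p = 0.029, adjusted 0.048). Each of these is the smallest p that the group sizes allow. Taking same-numbered S55L PP and WT PP libraries as pairs, the PP difference was again -1.85, and the exact sign-change test gave p = 0.125, the smallest that 4 pairs allow, so that the call was lost. Slc25a4 made up 94.6% ± 1.01 of the reads on both genes in S55L naive and 98.9% ± 0.15 in WT naive (SD, n = 5 each), and 94.1% ± 1.43 in S55L PP and 98.3% ± 0.35 in WT PP (SD, n = 4 each).

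**Figure D3:**
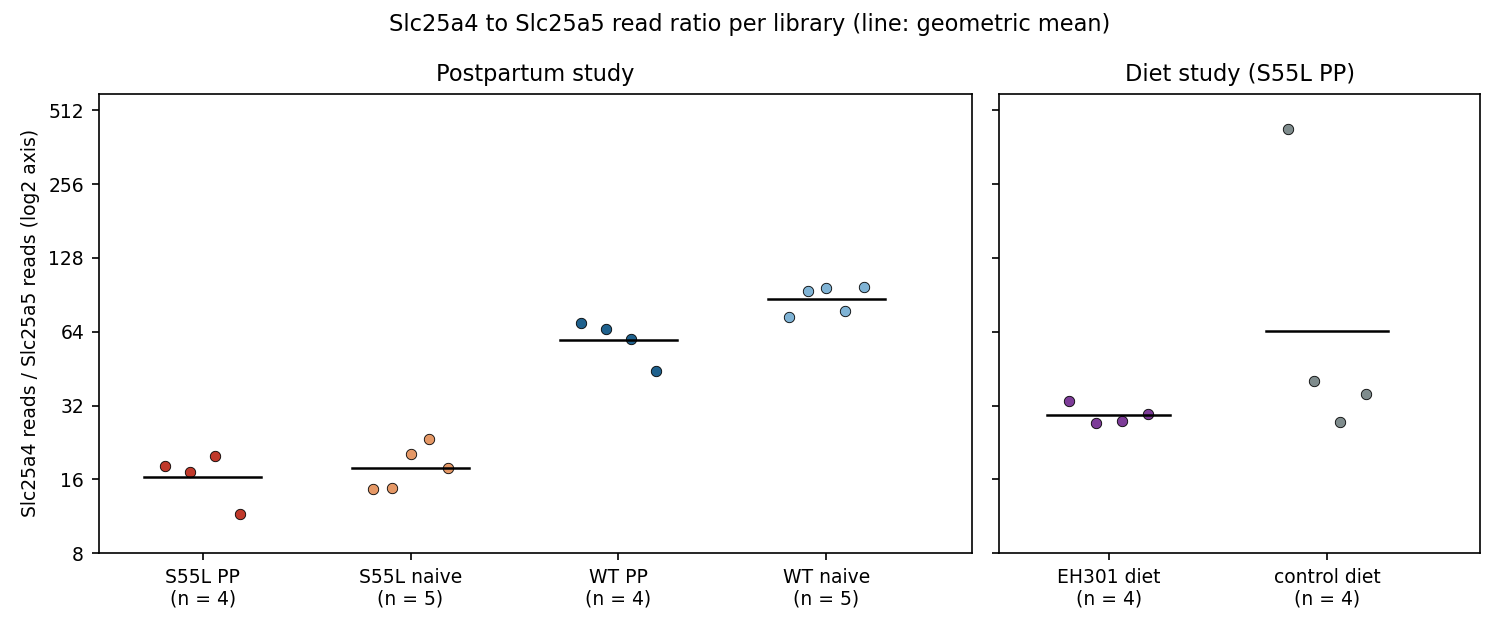
Ratio of Slc25a4 to Slc25a5 reads (y axis, log2-spaced) in each library, by group (x axis), for the postpartum study on the left and the diet study on the right; lines are geometric means. The S55L groups of the postpartum study span 11.6 to 23.3 and the WT groups 44.5 to 97.3, and 1 control diet library stands at 429.

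The 250 bases before the start of both genes are shown because the pair moved in opposite directions. They are from RefSeq on the build GRCm38.p6, which is not the build of the count tables, and capitals mark the match to a searched motif. The Slc25a4 window is chr8:46211063-46211312 on the minus strand, and the Slc25a5 window is chrX:36795347-36795596 on the plus strand.
Slc25a4: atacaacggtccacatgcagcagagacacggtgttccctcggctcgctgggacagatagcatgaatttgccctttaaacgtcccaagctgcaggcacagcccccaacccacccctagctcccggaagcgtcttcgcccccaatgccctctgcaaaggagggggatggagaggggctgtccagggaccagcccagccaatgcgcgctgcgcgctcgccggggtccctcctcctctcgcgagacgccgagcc
Slc25a5: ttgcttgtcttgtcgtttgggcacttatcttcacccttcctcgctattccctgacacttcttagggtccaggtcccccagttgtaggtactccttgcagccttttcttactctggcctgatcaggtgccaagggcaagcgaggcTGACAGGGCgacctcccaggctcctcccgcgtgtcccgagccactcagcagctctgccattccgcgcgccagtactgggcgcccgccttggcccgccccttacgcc
The match in Slc25a5 begins 106 bases before the start and has the letters TGACNNNGC of the NRF2 element. A promoter was listed for 36 of the 47 members, in 46 windows. On either strand, TGACNNNGC was in 9 of the 46 windows, those of Slc25a3, Slc25a5, Slc25a14, Slc25a23, Slc25a25, Slc25a33 and Slc25a38, and in 10.2% of all 32851 listed windows. TGATGNAAN, the letters of the ATF4 element, was in 0 of the 46 and in 3.44% of all windows, and TNAAGGTCA, those of the oestrogen-related receptor element, in 0 of the 46 and in 1.14% of all windows. Since a single motif was found in these windows, no match overlapped one of another motif, and a match or its absence describes the letters only.

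The phosphate carrier Slc25a3 was not called in either genotype comparison. It was at 1626, 1573, 1585, 2124 and 2126 CPM in S55L naive, against 2289, 2108, 2206, 2051 and 1766 CPM in WT naive, and at 1477, 1755, 1571 and 2407 CPM in S55L PP, against 1956, 1964, 2399 and 3748 CPM in WT PP. The genotypes overlapped in both states. The log2 fold change was -0.21 in naive hearts (95% interval -0.56 to 0.15) and -0.48 in PP hearts (95% interval -0.88 to -0.086, adjusted p = 0.058), and 5 alternatives called the PP difference. Of the ATP-Mg/phosphate carriers, which adjust the adenine nucleotide pool of the matrix, Slc25a23 was lower in S55L naive (log2 fold change -0.77, adjusted p = 0.0043) and not called in PP. Slc25a24 and Slc25a25 were called in neither.

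Among the carriers of the malate-aspartate shuttle, Slc25a11, the oxoglutarate/malate carrier, fell in both states. It was at 174, 194, 197, 235 and 198 CPM in S55L naive, against 357, 305, 342, 355 and 379 CPM in WT naive (log2 fold change -0.80, SE 0.12, adjusted p = 7.1e-06). In S55L PP it was at 195, 180, 187 and 169 CPM, against 317, 374, 416 and 353 CPM in WT PP (log2 fold change -0.998, SE 0.14, adjusted p = 2.4e-06). The groups did not overlap, and the naive call was lost with plate column as a term. Slc25a11 overlaps Rnf167 on the other strand, and the strand setting of the counting is not given in the sources used here. The 2 aspartate/glutamate carriers of the shuttle differed. Slc25a13, the form abundant in liver, averaged 36.6 ± 6.04 CPM in S55L naive and 74.5 ± 12.3 CPM in WT naive (SD, n = 5 each; log2 fold change -1.03, adjusted p = 4.0e-05), and 37.2 ± 10.7 CPM in S55L PP and 76.5 ± 20.3 CPM in WT PP (SD, n = 4 each; -1.05, adjusted p = 0.00018). Slc25a12, the form of heart and brain, averaged 286 ± 35.8 CPM in S55L naive and 277 ± 72.5 CPM in WT naive, with a log2 fold change of 0.046 (SD, n = 5 each; 95% interval -0.31 to 0.41). In PP hearts it was lower, at -0.56 (adjusted p = 0.030). This call was lost under 6 of 19 alternatives, and the test of the difference between the 2 states gave -0.61 on the log2 scale with an unadjusted p = 0.029 and an adjusted p = 0.997. The glutamate carrier Slc25a22 was higher in S55L naive, at 119 ± 6.29 CPM against 71.8 ± 14.4 CPM in WT naive (SD, n = 5 each; log2 fold change 0.73, adjusted p = 0.0034). In PP hearts it was not called (log2 fold change 0.31, 95% interval -0.13 to 0.76).

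Slc25a20, which carries acylcarnitines into the matrix for fatty acid oxidation, was at 126, 108, 102, 131 and 98.8 CPM in S55L naive, against 288, 225, 231.6, 215 and 190 CPM in WT naive. It was at 151, 115, 106 and 107 CPM in S55L PP, against 230, 202, 217 and 177 CPM in WT PP. S55L libraries lay below WT libraries throughout. The log2 fold change was -1.02 (SE 0.14, adjusted p = 1.6e-06) in naive and -0.78 (SE 0.16, adjusted p = 0.00034) in PP hearts. Of the di- and tricarboxylate carriers, the dicarboxylate carrier Slc25a10 was lower in S55L naive, at 2.99 ± 0.58 CPM against 9.20 ± 1.77 CPM in WT naive (SD, n = 5 each; log2 fold change -1.61, adjusted p = 0.0021), and overlaps another gene on the other strand. The citrate carrier Slc25a1 was not called in either comparison.

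Among the carriers of coenzymes, nucleotides and vitamins, Slc25a42, the carrier of coenzyme A, had the lowest adjusted p of the whole family in both comparisons. It was at 17.7, 14.7, 15.2, 14.8 and 17.2 CPM in S55L naive, against 51.0, 58.8, 52.6, 57.4 and 44.0 CPM in WT naive (log2 fold change -1.72, SE 0.15, adjusted p = 5.2e-10). In S55L PP it was at 9.50, 12.8, 14.0 and 14.3 CPM, against 35.2, 42.4, 38.7 and 33.4 CPM in WT PP (log2 fold change -1.55, SE 0.17, adjusted p = 7.1e-08). The highest S55L library held less than the lowest WT library in both states. Slc25a32, linked to folate and flavin transport, was higher in S55L naive, at 0.67 (adjusted p = 0.010), and had a log2 fold change of 0.49 in PP hearts (95% interval 0.032 to 0.96, adjusted p = 0.095). The NAD carrier Slc25a51 averaged 82.8 ± 3.38 CPM in S55L naive and 80.3 ± 9.99 CPM in WT naive (SD, n = 5 each), and 77.0 ± 8.60 CPM in S55L PP and 82.2 ± 11.5 CPM in WT PP (SD, n = 4 each). Its log2 fold changes were 0.042 (95% interval -0.22 to 0.31) and -0.090 (95% interval -0.38 to 0.20).

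Of the amino acid and S-adenosylmethionine carriers, Slc25a26, which brings S-adenosylmethionine into the matrix, was at 15.0, 17.9, 12.5, 17.6 and 18.5 CPM in S55L naive, against 36.1, 39.2, 42.1, 32.1 and 28.2 CPM in WT naive. In S55L PP it was at 23.5, 16.9, 17.8 and 18.1 CPM, against 38.4, 38.5, 38.7 and 35.9 CPM in WT PP. The groups did not overlap, with log2 fold changes of -1.12 (adjusted p = 2.5e-06) and -0.99 (adjusted p = 6.6e-05). The gene overlaps Lrig1 on the other strand. Slc25a29, a carrier of basic amino acids, was near the detection limit in mutants, at 0.68 ± 0.95 CPM in S55L naive against 8.37 ± 2.77 CPM in WT naive (SD, n = 5 each), and at 1.24 ± 1.40 CPM in S55L PP against 10.8 ± 3.22 CPM in WT PP (SD, n = 4 each). Its log2 fold changes of -3.38 (adjusted p = 8.8e-05) and -3.07 (adjusted p = 0.00042) rest on few reads. Slc25a29 reached the filter's level in 1 of the S55L libraries and in all WT libraries, so that it was tested only through the genotype in which it is higher. Its call as lower in both comparisons is therefore a description. Slc25a44, the branched-chain amino acid carrier, was at 56.3, 50.0, 41.3, 51.2 and 43.4 CPM in S55L naive, against 23.2, 31.0, 29.8, 29.3 and 33.6 CPM in WT naive, and at 43.9, 53.2, 45.5 and 42.1 CPM in S55L PP, against 31.9, 37.4, 35.0 and 28.3 CPM in WT PP. Every S55L library was above every WT library of the same state, with log2 fold changes of 0.72 (adjusted p = 0.00026) and 0.49 (adjusted p = 0.020). The PP call was lost under 5 of 19 alternatives.

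Among the iron and glutathione carriers, Slc25a39, which takes glutathione into mitochondria, was at 536, 444, 466, 373 and 273 CPM in S55L naive, against 99.9, 182, 206, 202 and 211 CPM in WT naive. It was at 387, 478, 374 and 345 CPM in S55L PP, against 98.7, 155, 245 and 205 CPM in WT PP. The genotypes did not overlap, and the log2 fold changes were 1.22 (SE 0.22, adjusted p = 0.00014) and 1.18 (SE 0.25, adjusted p = 0.00084). Its close relative Slc25a40 was called in neither state, at -0.23 (95% interval -0.81 to 0.36) and 0.10 (95% interval -0.54 to 0.75). Slc25a28, the mitoferrin of most tissues, was lower at -0.75 in naive (adjusted p = 0.0023) and -0.63 in PP hearts (adjusted p = 0.024), a PP call lost under 9 of 19 alternatives. Slc25a37, the mitoferrin of red cell precursors, was called in neither. Slc25a39 is also strongly expressed by erythroid cells. Of 5 tested erythroid markers 3 were lower and none higher in S55L naive (median log2 fold change -1.23). None was called in S55L PP, where the median was 0.66. The summed level of the listed erythroid markers was 1583 to 3116 CPM in S55L naive against 2920 to 5784 CPM in WT naive. In S55L PP it was 3671 to 10911 CPM, against 840 to 6306 CPM in WT PP. The part of erythroid cells in the Slc25a39 difference was not tested.

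Both called members of the uncoupling-protein-like carriers were higher in mutants. Slc25a30 averaged 24.0 ± 4.14 CPM in S55L naive and 13.3 ± 3.55 CPM in WT naive (SD, n = 5 each; log2 fold change 0.84, adjusted p = 0.0023), and 19.3 ± 6.10 CPM in S55L PP and 10.3 ± 1.47 CPM in WT PP (SD, n = 4 each; 0.91, adjusted p = 0.0048). Slc25a14 stayed under 10 CPM on average, with log2 fold changes of 1.12 (adjusted p = 0.0047) and 1.13 (adjusted p = 0.015), and its PP call was lost under 6 of 19 alternatives. The third member, Slc25a27, was not called. Slc25a46, which lies in the outer membrane and takes part in mitochondrial dynamics, averaged 50.2 ± 3.48 CPM in S55L naive and 45.4 ± 4.77 CPM in WT naive (SD, n = 5 each) and was not called. Of members without an agreed substrate, Slc25a34 was at 70.0, 62.7, 77.1, 97.2 and 82.0 CPM in S55L naive, against 150, 204, 215, 248 and 239 CPM in WT naive (log2 fold change -1.44, adjusted p = 2.9e-05). In S55L PP it was at 59.0, 59.1, 106 and 33.7 CPM, against 127, 196, 162 and 100 CPM in WT PP (-1.17, adjusted p = 0.0013), where 1 S55L library lay above the lowest WT library. Slc25a45 averaged 18.9 ± 3.66 CPM in S55L naive and 8.14 ± 3.07 CPM in WT naive (SD, n = 5 each; log2 fold change 1.24, adjusted p = 0.00059). In PP hearts it was at 0.77 (adjusted p = 0.045), a call lost under 8 of 19 alternatives. Slc25a47, a gene known from liver, had at most 3.97 CPM on average in a group, and 2 or 3 reads in each S55L naive library. It reached the 3.51 CPM that the filter asks for in 4 WT libraries and in 0 S55L libraries, so that it was tested only through the genotype in which it is higher. Its call as lower in both comparisons is therefore a description, and the PP call was lost under 9 of 16 alternatives, among them no filter.

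Genes that work with the carriers were counted from lists. Of 10 genes for carrier import, 4 were higher in S55L naive, among them the receptor gene Tomm70a (log2 fold change 0.70, adjusted p = 8.8e-05) and the small TIM genes Timm9 (0.98, adjusted p = 0.00069) and Timm8a1 (1.02, adjusted p = 0.0029), and 1 was lower, so that 50.0% were called against 43.5% of all genes. In S55L PP only Tomm70a was called, at 0.63 (adjusted p = 0.0012), against 31.5% of all genes. Of 18 genes for other transport across the inner membrane, 2 were higher and 7 lower in S55L naive, and 3 were higher and 5 lower in S55L PP. These calls are 50.0% and 44.4% of the list, beside the same 43.5% and 31.5% of all genes. The pyruvate carrier gene Mpc2 was lower in both (-0.73, adjusted p = 0.00042, and -1.02, adjusted p = 4.8e-05), as was the ABC transporter gene Abcb8 (-1.03, adjusted p = 0.00038, and -0.88, adjusted p = 0.0063). Of 4 tested carriers under other symbols, Ucp3 was lower in S55L naive (-1.63, adjusted p = 1.5e-07) and none was called in S55L PP. Of the 3 VDAC genes and Ppif, Vdac2 was higher in S55L naive (0.47, adjusted p = 0.0039) and none was called in S55L PP.

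The postpartum comparisons ask how carrier transcripts differ between PP and naive hearts within a genotype. Breeding, pregnancy, birth and age cannot be told apart in them, since the age of the PP mice at death is not given. No member was called in S55L PP against S55L naive, where 0% of all genes were called, or in WT PP against WT naive, where 0.0167% of all genes were called. At an unadjusted p below 0.05 there were 3 members in each, which is 7.89% of those tested, beside 6.25% of all genes in S55L and 6.33% in WT. The DESeq2 test called 0 members in S55L and 1 in WT, Slc25a5. This gene was at 162, 190, 196 and 256 CPM in WT PP, against 153, 122, 105, 143 and 123 CPM in WT naive. Every WT PP library was above every WT naive library, with a log2 fold change of 0.64 (95% interval 0.32 to 0.95, adjusted p = 0.25). It was 1 of 2 members without overlap between these groups, the other being Slc25a42, and 1.88% of all genes had none. In S55L hearts the change of Slc25a5 was -0.086 (95% interval -0.39 to 0.22), and the difference between the genotypes was -0.72 (95% interval -1.16 to -0.28, unadjusted p = 0.0023, adjusted p = 0.997). That test of the difference called 0 members and 0% of all genes, with 2 members (5.26%) at an unadjusted p below 0.05, Slc25a5 and Slc25a12, beside 3.72% of all genes. Slc25a4 changed by 0.071 in WT (95% interval -0.22 to 0.36) and by -0.21 in S55L (95% interval -0.50 to 0.083). The Slc25a4 to Slc25a5 ratio differed by -0.56 on the log2 scale in WT PP against WT naive (1.47-fold lower, exact permutation test, two-sided, p = 0.016, adjusted over 5 comparisons 0.040, the smallest p possible). In S55L PP against S55L naive it differed by -0.12 (exact permutation test p = 0.62).

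In WT PP against WT naive the other members at an unadjusted p below 0.05 were Slc25a42, at -0.50, and Slc25a34, at -0.54. In S55L PP against S55L naive they were Slc25a22, at 71.3 ± 21.5 CPM in S55L PP (SD, n = 4) and 119 ± 6.29 CPM in S55L naive (SD, n = 5), Slc25a12, at -0.54, and Slc25a47, at 1.37. The adjusted p of Slc25a22 was 0.51. The groups did not overlap for 3 members, Slc25a22, Slc25a12 and Slc25a42, and for 2.25% of all genes. Of the other lists, Ucp3 was lower in WT PP than in WT naive (log2 fold change -2.14, adjusted p = 7.0e-06), 1 of the 2 genes called in that comparison.

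**Figure D4:**
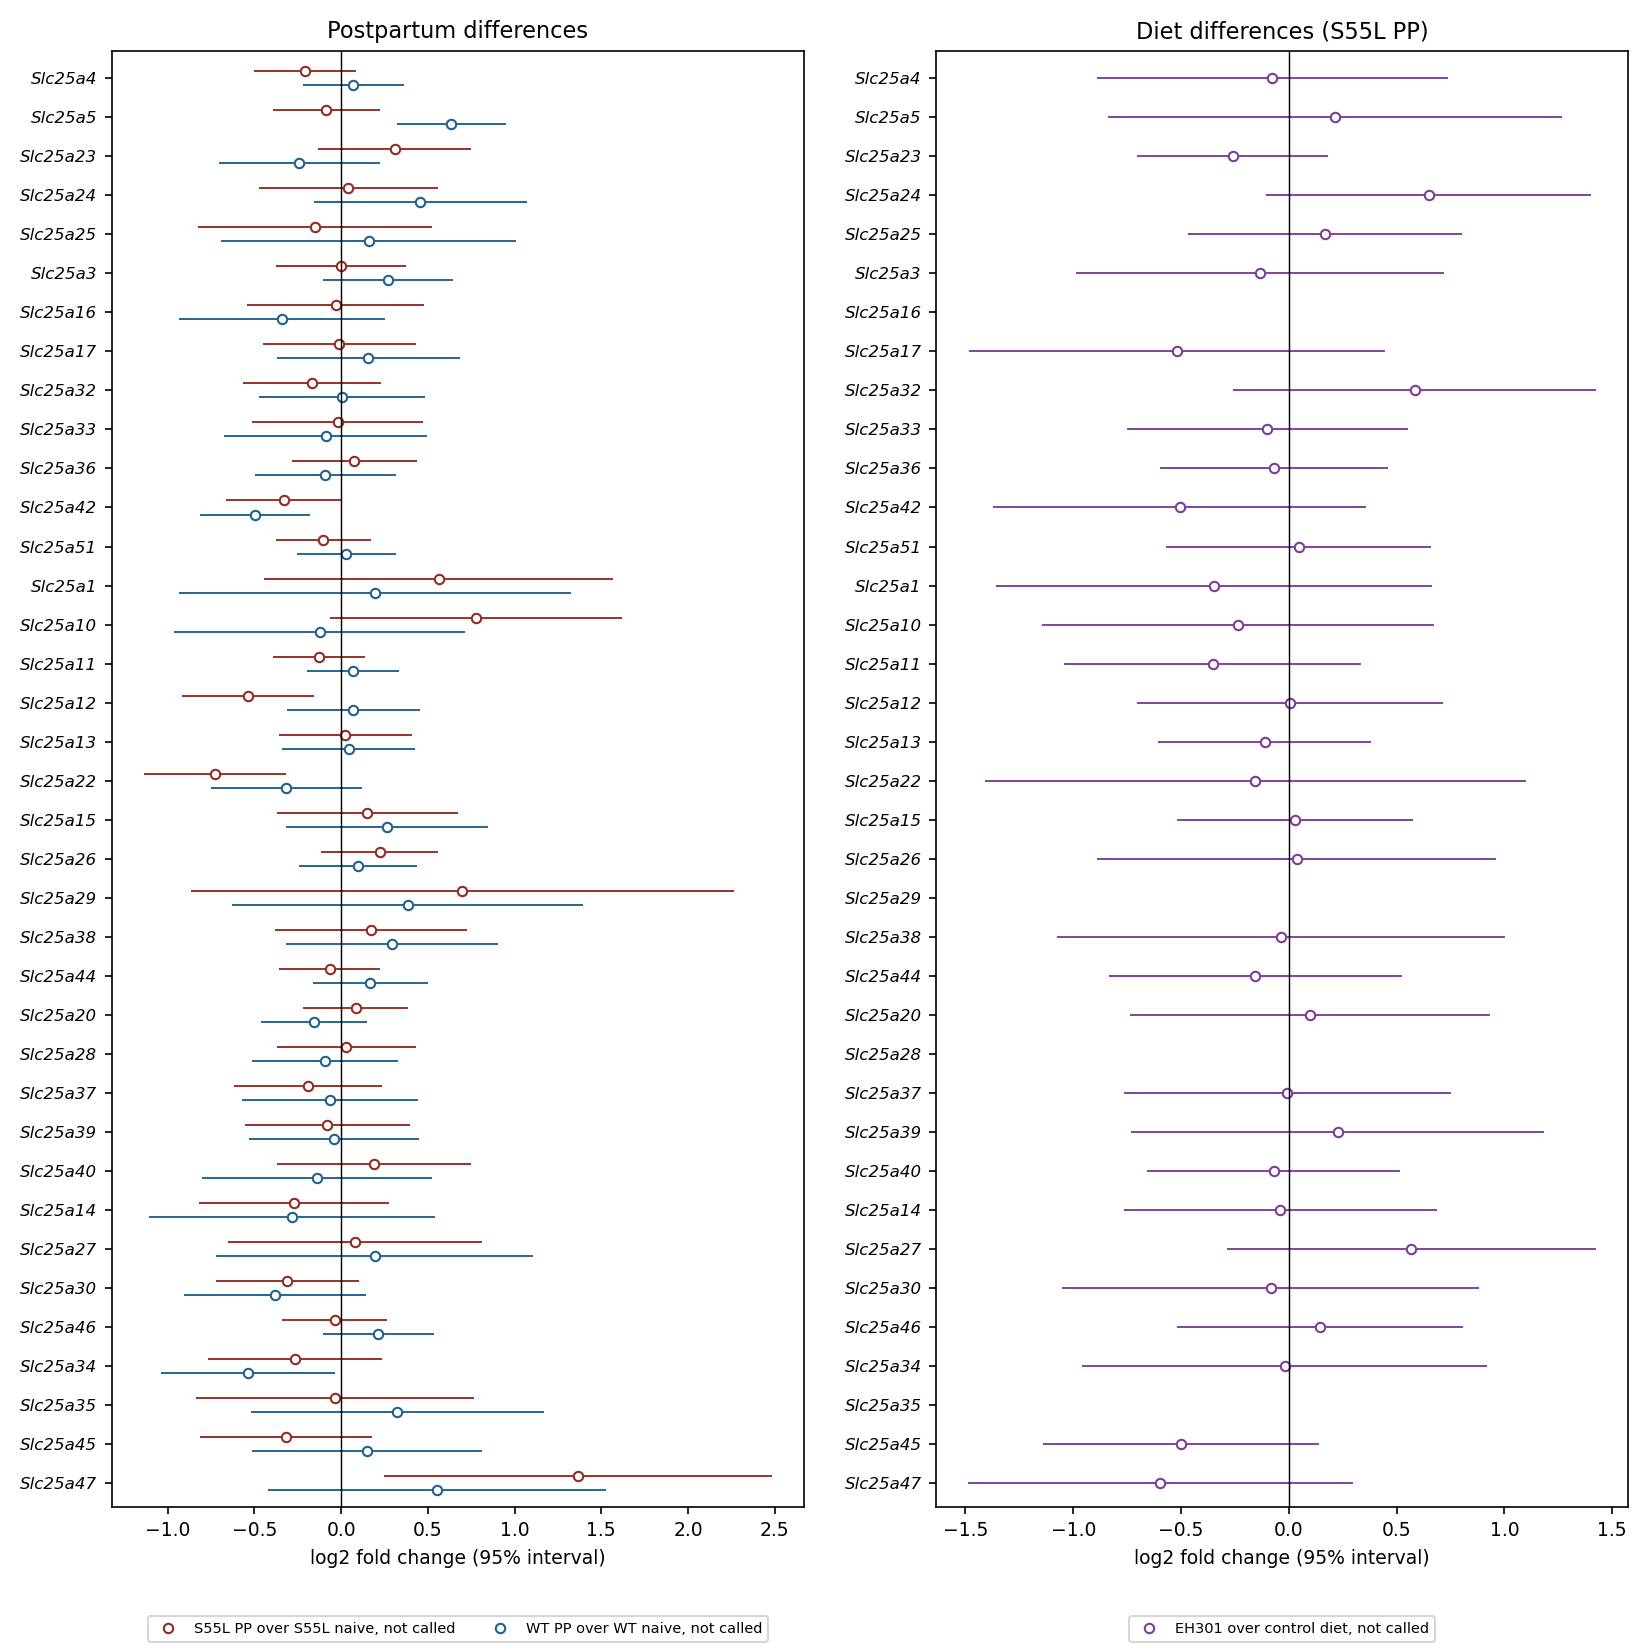
Log2 fold change (x axis) with 95% interval of the tested Slc25a members reported here (y axis, in order of role) for PP over naive hearts within S55L and within WT (left), and for EH301 over control diet (right); open points were not called. No member was called in any of the 3 comparisons, and blank rows on the right were under the count filter.

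The diet comparison asks whether carrier transcripts differ between the EH301 and the control diet in S55L hearts on postpartum day 0. The control diet libraries used lay in plate columns 1 and 2 and the EH301 libraries used in column 3. Diet and plate column can therefore not be told apart. None of the 34 tested members was called, nor was any gene (0%), and none had an unadjusted p below 0.05, as 1.33% of all genes did. The DESeq2 test called 0 members as well. Log2 fold changes lay between -0.60 and 0.65, with a median of -0.053 against 0.021 over all tested genes. The 95% intervals reached from -1.49 to 1.43, so that changes of about 2-fold were within the interval of many members. Slc25a4 was at 2393, 1267, 2460 and 1460 CPM on EH301, against 954, 2672, 2166 and 2199 CPM on the control diet (log2 fold change -0.077, 95% interval -0.89 to 0.74). Slc25a5 was at 72.0, 46.7, 88.9 and 49.5 CPM on EH301, against 2.22, 66.1, 79.2 and 61.5 CPM on the control diet (0.21, 95% interval -0.84 to 1.27). The diets overlapped for both genes. The groups did not overlap for 1 member, the ATP-Mg/phosphate carrier Slc25a23, at 45.2 ± 4.38 CPM on EH301 and 54.4 ± 5.40 CPM on the control diet (SD, n = 4 each; log2 fold change -0.26, 95% interval -0.70 to 0.18), and for 1.5% of all genes. The NAD carrier Slc25a51 averaged 84.2 CPM on EH301 and 80.1 CPM on the control diet and was not called.

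The Slc25a4 to Slc25a5 ratio was 33.2, 27.1, 27.7 and 29.5 on EH301, against 429, 40.4, 27.3 and 35.8 on the control diet. The value of 429 rests on 429 and 1 reads in control diet 1, the shallowest library with 466651 reads on genes. The log2 difference was -1.13 (exact permutation test, two-sided, p = 0.14, adjusted over 5 comparisons 0.18), and -0.22 without control diet 1.

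**Figure D5:**
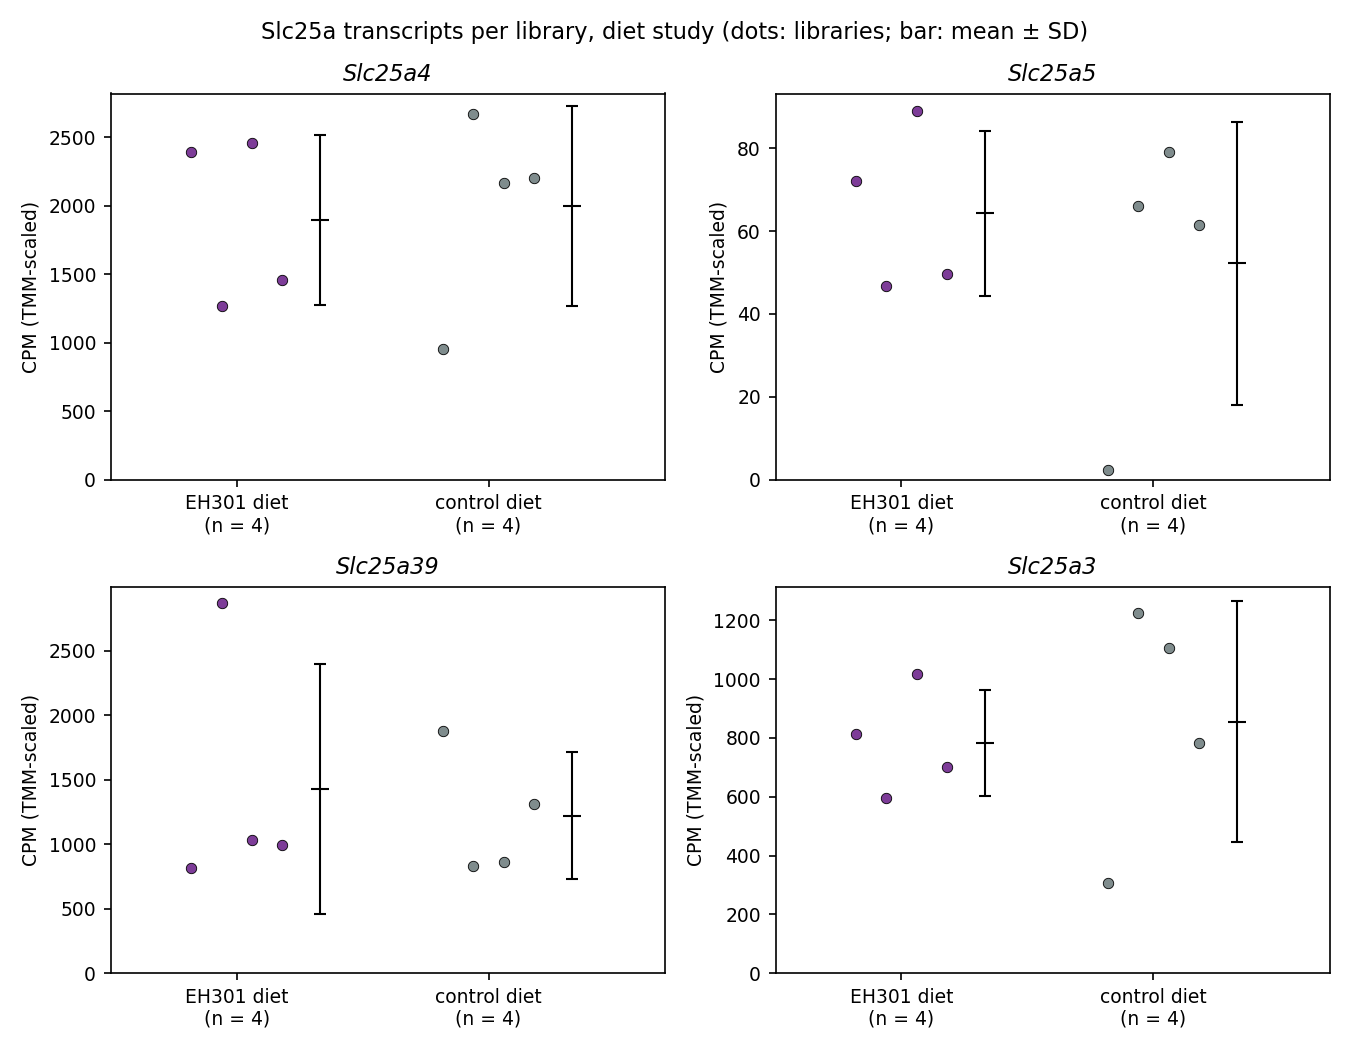
Level in CPM (y axis, scaled by trimmed means) of 4 abundant or paired carriers in each library of the EH301 and control diets (x axis); points are libraries and bars the mean ± SD. The diets overlap for each gene, and 1 library of each diet stands high for Slc25a39, at 2873 and 1879 CPM.

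The 2 shallowest libraries of the diet study stood apart from the others for several members. Slc25a39 was at 816, 2873, 1030 and 990 CPM on EH301, against 1879, 833, 862 and 1309 CPM on the control diet. Its highest values were in EH301 diet 8 and control diet 1, the libraries with the fewest reads, which also held the lowest Slc25a3 values, 595.5 and 307 CPM. Mitochondrially encoded genes made up 11.9% and 6.95% of the reads on genes in these libraries and 16.9% to 24.6% in the others. Their summed macrophage markers were 4923 and 4157 CPM against 1260 to 2311 CPM in the others, but the listed genes split. Csf1r was at 1974 and 2135 CPM against 437 to 861 CPM, and C1qa was also higher in both than in any other library. C1qb was higher than in the others in EH301 diet 8 only. C1qc was lower in both than in any other library. Adgre1, Cd68, Fcgr1 and Mrc1 were lower than in the others in control diet 1 only. The summed skeletal muscle markers of the 2 shallowest libraries were 1349 and 3141 CPM against 577 to 862 CPM. Mylpf, a fast skeletal muscle myosin light chain, was at 276 and 1141 CPM against 2.08 to 11.7 CPM. Tnnt3, the fast skeletal muscle troponin T, was at 64.2 and 260.2 CPM against 3.99 to 11.6 CPM. In the 2 shallowest libraries the summed brown adipocyte markers were 346 and 405 CPM against 129 to 213 CPM. Nearly all of this was Cidea (344 and 403 CPM against 128 to 213 CPM), the only tested gene of the list. Ucp1 was at 0 throughout, Adipoq was at 0 in both libraries and Plin1 was at 1.95 and 2.22 CPM. The part of these measures in the carrier values was not tested. Without both libraries no member was called either. The diet table was counted and scaled apart from the postpartum table, so its levels are set beside the other study's only as values. Slc25a4 held 19.8% to 45.3% of the family's reads on EH301 and 20.8% to 43.3% on the control diet.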

How the data were processed

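Hearts were profiled with 3' mRNA libraries (Lexogen QuantSeq FWD) after extraction with the Qiagen RNeasy Mini kit, per the labels' protocols. The authors deposited unnormalised read counts, made with HTSeq 0.6.1 on STAR 2.7.0f alignments (build GRCm39.p6) of reads trimmed with Trimmomatic 0.39, per the submitters' processing notes, which also name DESeq2 with a version of 3.21. The annotation, the strand setting and the HTSeq mode are not given in the sources used here, so genes that overlap or have near-identical copies are uncertain. Symbols came from GENCODE M21 by Ensembl ID and matched 51487 IDs of the postpartum and 52073 of the diet table, with 99.4% and 99.8% of the reads on genes. The summary lines that HTSeq adds (no gene, several genes, several places) were not counted as genes. The line for several places held 17.5% to 27.3% of all reads in postpartum-study libraries and 35.2% to 39.1% in diet-study libraries.

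From the counts, genes were filtered with filterByExpr by group, given TMM (trimmed mean) scaling and fitted with edgeR 4.0.16 (glmQLFit, robust, quasi-likelihood test) in R 4.3.3, with Benjamini-Hochberg adjustment over all genes and a threshold of 0.05. The 4 postpartum-study groups were fitted together (18 libraries) and the 2 diets apart (8 libraries). SE and 95% intervals come from that fit, and CPM use the scaled library sizes. The ratio was tested with two-sided exact permutation tests in SciPy 1.17.1. The labels do not say that libraries are separate mice, so a p-value measures only how far these libraries spread, which may be technical. Alternatives were scaling by total counts or by DESeq2 size factors, testing with DESeq2 1.42.0, no filter, no mitochondrially encoded genes, a plate column term, a replicate block from the number in the title, fits of the compared groups alone, thinned counts, all deposited columns, each library left out, for the diets the column under both diets kept under either and no libraries under 1200000 reads, and, added after seeing the data, no libraries of the plate row with many reads on no gene.

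Same-numbered S55L PP and WT PP libraries had correlated deviations from the means of their groups (r between 0.119 and 0.333 in 4 pairs). The r was 0.326 and 0.333 for numbers 1 and 5, whose libraries shared a plate row. It was 0.119 and 0.137 for numbers 3 and 4, whose libraries did not. Libraries with different numbers were not compared, and the labels do not say whether the numbers pair the libraries. The fit without the block was kept for all results, and blocked values are given where they change a call. In every other pair of groups at least 1 number was at or below 0.1. Described in detail were Slc25a4, Slc25a5 and, per comparison, up to 6 called members in each direction with the lowest adjusted p, the others being named under their role (1 member is counted in totals but not reported here), and for other lists up to 3 called genes. Members singled out at an unadjusted p or by their lack of a call were chosen after their values were seen. The members and lists were chosen with earlier results of these data known. The tests were checked on simulated counts.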

Additional observations from a re-analysis of the deposited data

Results flagged for a closer look

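In 90 groups of member values tested for a library far from the others, 8 stood out, where chance gives about 1 in 20 for independent groups with normal spread. These groups share libraries, and whether 8 is more than chance gives was not tested. Slc25a39 was low in WT naive 1, at 99.9 CPM against 182 to 211 CPM in the other WT naive libraries. Slc25a13 was high in WT PP 1, at 107 CPM against 64.6 to 69.9 CPM in the other WT PP libraries. Slc25a26 was at 35.9 CPM in WT PP 5 against 38.4 to 38.7 CPM in the others, a small gap in a narrow group. Slc25a4 was high in S55L naive 4, at 7509 CPM against 5184 to 5643 CPM in the others. In the diet study Slc25a39 was high in EH301 diet 8, at 2873 CPM against 816 to 1030 CPM, and so was Slc25a14, at 12.6 CPM (13 reads) against 5.19 to 6.05 CPM. Slc25a45 was high in control diet 1, at 31.1 CPM (14 reads) against 15.9 to 16.1 CPM. The log2 ratio of Slc25a4 to Slc25a5 was 8.74 in control diet 1 against 4.77 to 5.34 in the other control diet libraries.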

How the results depend on the processing

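No called member and no ratio that passed its test reversed under any alternative. Under every alternative run, 13 of the 21 naive and 10 of the 18 PP genotype calls were kept. The 21 naive calls became 13 with plate column as a term, and 20 to 21 with a library left out. The 18 PP calls became 11 with plate column as a term, 12 with only the compared groups and 13 with counts thinned to the smallest library. They became 13 to 21 with a library left out, and without S55L PP 1, Slc25a1, Slc25a10, Slc25a22 and Slc25a23 joined them. Slc25a1 reached the filter's level in 1 library of each S55L group, and in 3 WT naive and 2 WT PP libraries. It passed the filter only through the genotype in which it is higher, so that its added call is a description. With the number as a replicate block there were 21 naive and 20 PP calls, with Slc25a3 and Slc25a35 added, and 0 in the other comparisons. Slc25a35 reached the filter's level in 0 S55L libraries, and in 2 WT naive and 3 WT PP libraries. It was therefore tested only through the genotype in which it is higher, and its added call is a description. In WT PP against WT naive 1 member, Slc25a5, was called by the DESeq2 test, with plate column as a term, and without the 3 plate row libraries. In S55L PP against S55L naive 1 member, Slc25a22, was called without the filter. With the replicate block the log2 ratio differences were -2.29 (naive genotype, exact p = 0.0625), -1.85 (PP genotype, exact p = 0.125) and -0.53 (WT PP against WT naive, exact p = 0.125), where the sign-change test cannot go lower. With a library left out the PP genotype difference was -1.99 to -1.68 (exact p = 0.057, again the smallest possible). Without the plate row libraries it was -1.82 (exact p = 0.10), and that of WT PP against WT naive was -0.70 (exact p = 0.057). The diet ratio was -1.54 to -0.22 with a library left out. Depth limits the diet comparison: in its shallowest library 3 reads came to 6.67 CPM, against 0.54 CPM in the deepest S55L naive library, and 17 of the 34 members passed the filter once counts were thinned to that library.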
